A study of Mus musculus with 6 samples.

Results

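The lymphotoxin and tumour necrosis factor (TNF) genes through which thymocytes exchange signals with other thymic cells were described as 10 genes, 6 ligands (Ltb, Lta, Tnf, Tnfsf8, Tnfsf11 and Cd40lg) and 4 receptors (Ltbr, Tnfrsf1b, Tnfrsf9 and Cd27). They were taken from 22180 genes on the array, each read through the brightest probe set that names that gene alone. All 10 were measured, each by 1 such probe set, so no choice between probe sets arose. RNA came from primary thymocytes carrying both CD4 and CD8 (double-positive cells), from Ets1-/- mice (3 arrays) and from wild-type mice (3 arrays), all on C57BL/6 and 5 to 6 weeks old. Per the labels, cohorts of litter mates served as replicates. The cells were fixed with formaldehyde and then isolated on magnetic beads for CD8 and afterwards for CD4, and the labels used here give neither the design of the Ets1 deletion nor the number of animals behind an array. The genes were chosen by name with their levels and differences on these same 6 arrays already known, so both are given as a description, with no p-value.

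Ligands of the TNF family are mostly membrane-bound trimers that bind receptors on neighbouring cells, and many of these receptors signal through TRAF adaptors to NF-kB. Lymphotoxin beta anchors lymphotoxin alpha at the cell surface, and the heterotrimer signals to the lymphotoxin beta receptor on stromal and myeloid cells. In the thymus, lymphotoxin, RANKL (Tnfsf11) and CD40 ligand made by developing T cells act on medullary epithelial cells, which present self antigens, and this exchange is known as thymic crosstalk.

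The targeted gene came first. Ets1 had log2 signals of 9.27, 9.22 and 8.79 in Ets1-/- and 9.11, 9.32 and 9.17 in wild type, and the groups overlapped (difference -0.10 ± 0.23, SE; limma adjusted p = 0.860). Where this probe set lies relative to the deletion is not given, so it does not check the labels. Array medians were 3.66 to 4.31 in Ets1-/- and 4.21 to 4.33 in wild type. Replicate 1 of Ets1-/- had the value 3.66, and the median difference over all genes was -0.22. Differences relative to that median are therefore given as well.

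The defining markers of double-positive cells were present. All 10 measured markers lay above the median probe set, 1 rose (Ptcra, the pre-T-cell receptor alpha chain, by 1.50; Dntt was at -0.46 without passing the test) and 0 fell. In the lists of several other cell types some markers were higher in Ets1-/-. Over all genes, 1.29% were higher and 0.568% lower in Ets1-/- at a limma adjusted p under 0.05. Of 17 macrophage and monocyte markers 13 rose, among them Csf1r by 3.31 and Ctss by 2.78, with a summed linear signal of 4166 to 5673 in Ets1-/- and 789 to 977 in wild type. Of 10 dendritic-cell markers 5 rose, among them H2-Aa by 3.48 and H2-Eb1 by 4.11 (sums 2981 to 3288 in Ets1-/- and 372 to 422 in wild type). The others did not pass the test, with Siglech at 0.81, Flt3 at 0.03, Batf3 at -0.25, Zbtb46 at -0.38 and Xcr1 at -1.15. The list thus did not rise as a whole. Its sums in Ets1-/- came mostly from H2-Aa, H2-Ab1 and H2-Eb1, with mean log2 signals of 10.12, 10.07 and 9.14 there. Of 10 B-cell markers 5 rose (Ms4a1 by 6.14, Fcrla by 3.05; sums 462 to 938 in Ets1-/- and 107 to 142 in wild type), and Ms4a1 averaged 0.04 on the log2 scale in wild type. With a pseudocount of 16 on the linear scale, which damps low signals, Ms4a1 was at 2.39 and Fcrla at 1.51. Of 5 plasma-cell markers 2 rose, Jchain by 5.30 and Mzb1 by 3.95 (sums 761 to 2231 in Ets1-/- and 227 to 242 in wild type). Of 9 markers of mature single-positive T cells 5 rose (Klf2 by 3.60, S1pr1 by 3.54; sums 2046 to 2527 in Ets1-/- and 849 to 897 in wild type). Of 6 markers of activated and regulatory T cells 1 rose, Il2ra by 3.17, and Ikzf2 was at 1.02 without passing the test (sums 1892 to 2354 in Ets1-/- and 830 to 1100 in wild type). Ikzf2 gave most of these sums, with means of 10.46 in Ets1-/- and 9.44 in wild type. Icos at 1.18, Ctla4 at 0.10, Foxp3 at 0.03 and Pdcd1 at 0.02 did not pass the test either. Of 7 gamma-delta and innate-like markers 2 rose, Maf by 3.46 and Blk by 2.99, the last at 0.80 and no longer called with the pseudocount (sums 302 to 478 in Ets1-/- and 82.4 to 119 in wild type). Without passing the test, Il2rb was at 4.08, Il17a at 0.66, Zbtb16 at 0.04, Tbx21 at -0.11 and Sox13 at -0.42. In these 8 lists 0 markers fell. The natural killer, neutrophil, erythroid, fibroblast and endothelial lists had 0 members past the limma test, where 1.86% of all genes passed. Of their 5, 9, 4, 7 and 8 measured genes, 2, 1, 0, 0 and 4 had an unadjusted p under 0.05, beside 13.2% of all genes. The endothelial sums were 104 to 169 in Ets1-/- and 245 to 345 in wild type, with 0 of the 8 means higher in Ets1-/-. Pecam1 gave most of these sums, with means of 6.42 in Ets1-/- and 7.68 in wild type. It was the only endothelial marker above the median probe set. The marker lists include cells that make or respond to the 10 genes, and their part in the values below was not tested. In such bulk samples fewer cells of a type and less RNA per cell cannot be told apart.

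Ltb, which encodes lymphotoxin beta, had the largest difference of the 10. Its log2 signal was 4.45, 5.12 and 5.19 in Ets1-/- and 7.65, 7.73 and 8.40 in wild type. The groups were separated by a gap of 2.46. The means were 4.92 ± 0.41 in Ets1-/- and 7.92 ± 0.41 in wild type (SD, n = 3 each), a difference of -3.00 ± 0.31 (SE), or 8.01-fold lower. Of all 22180 genes, 33 had a more negative difference. Relative to the median of all genes the difference was -2.78, and with the pseudocount of 16 it was -2.48. Leaving out any 1 array gave -3.14 to -2.77.

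**Figure D1:**
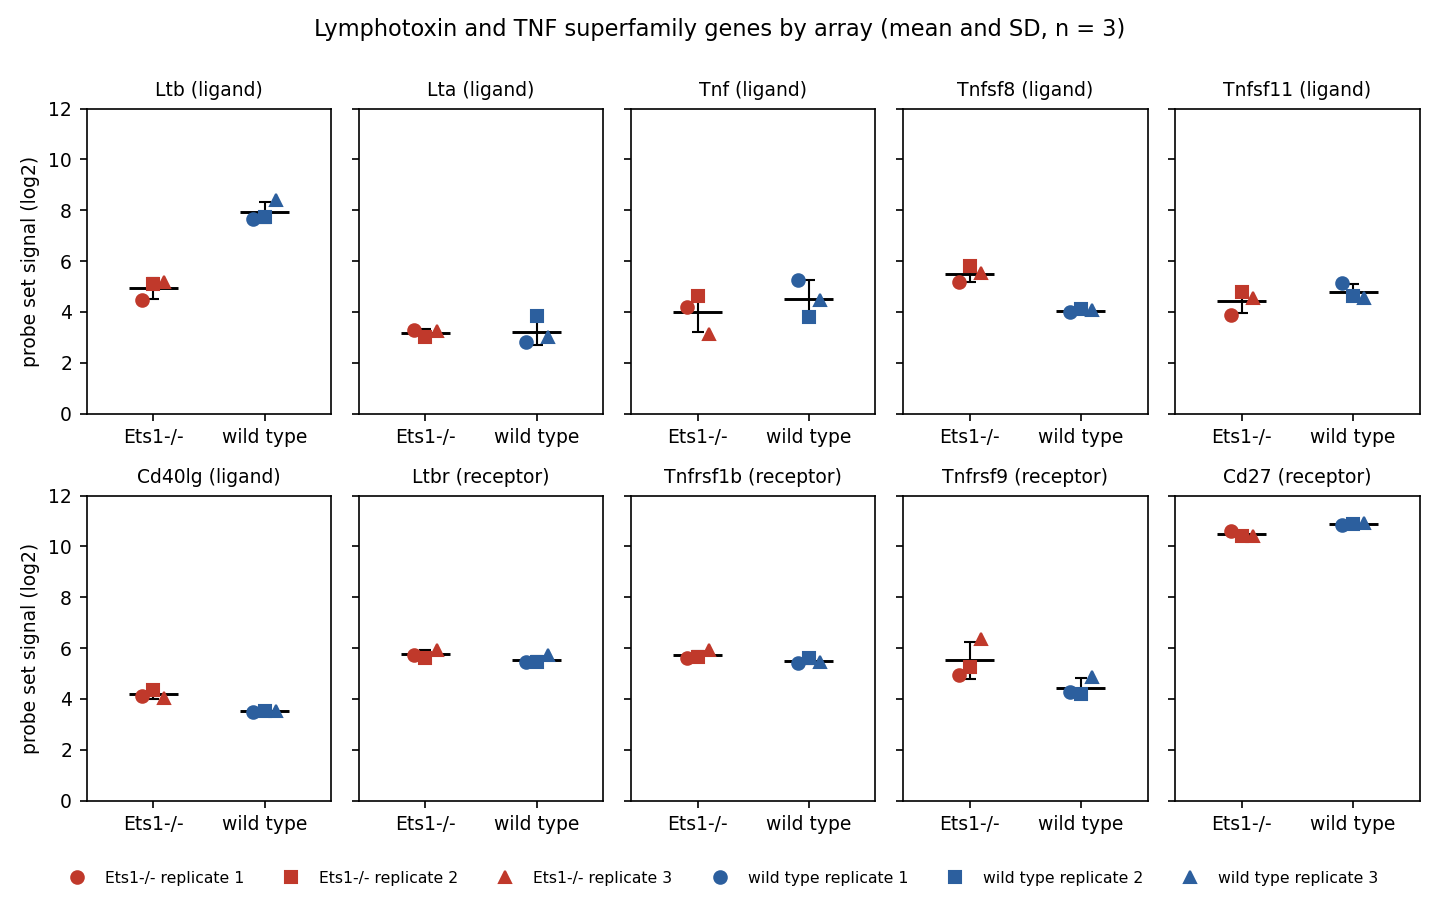
Log2 probe set signal of the 10 genes on each array, Ets1-/- left of wild type, with a symbol for each replicate and bars for the mean and SD (n = 3). Ltb is low in all 3 Ets1-/- arrays (4.45 to 5.19, against 7.65 to 8.40 in wild type) and Tnfsf8 is high in all 3 (5.17 to 5.82, against 3.99 to 4.10); heights are not comparable between genes, because each has its own probes.

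Lta and Tnf lie beside Ltb on chromosome 17 and did not share its separation. Lta, whose product pairs with lymphotoxin beta or acts alone as a secreted trimer, had 3.28, 3.03 and 3.26 in Ets1-/- and 2.82, 3.84 and 3.02 in wild type. The wild-type values enclosed those of Ets1-/-. The difference was -0.04 ± 0.31 (SE; 95% interval -0.75 to 0.68), and it took the opposite sign, 0.18, once each array was centred on its median. Its mean signal ranked at the 24.7th percentile of all probe sets, so little signal stood behind it. Tnf, the inflammatory cytokine that gives the family its name, had 4.21, 4.62 and 3.13 in Ets1-/- and 5.26, 3.81 and 4.47 in wild type. These groups overlapped, and Tnf had the widest replicate spread of the 10 genes, with an SD of 0.77 in Ets1-/- and 0.73 in wild type. Its difference was -0.53 ± 0.48 (SE; 95% interval -1.65 to 0.59), from -0.88 to -0.10 when 1 array was left out. After centring it was -0.32, and with the pseudocount -0.28.

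The sequences upstream of Ltb and Tnf are shown because Ets1 belongs to the ETS family and these neighbouring genes had different values. They are the 250 bases before the start site, from RefSeq (GRCm38.p6), 5′ to 3′ in the direction of the gene, at chr17:35194257-35194506 on the plus strand for Ltb and chr17:35202008-35202257 on the minus strand for Tnf. Capitals mark the ETS core GGAA on either strand (TTCC on the opposite one).
Ltb: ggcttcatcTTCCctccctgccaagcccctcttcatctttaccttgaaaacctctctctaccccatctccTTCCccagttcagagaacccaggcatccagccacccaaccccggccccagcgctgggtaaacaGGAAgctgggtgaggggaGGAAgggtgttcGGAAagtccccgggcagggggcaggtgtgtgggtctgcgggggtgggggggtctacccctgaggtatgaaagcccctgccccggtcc
Tnf: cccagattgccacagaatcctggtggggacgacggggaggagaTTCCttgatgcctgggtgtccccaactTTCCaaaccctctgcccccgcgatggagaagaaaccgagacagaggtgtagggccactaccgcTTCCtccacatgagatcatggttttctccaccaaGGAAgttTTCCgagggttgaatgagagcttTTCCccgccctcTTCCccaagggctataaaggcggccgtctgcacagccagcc
The Ltb window holds 5 cores and the Tnf window 7, where the median over 32851 windows of the same length is 3 and 93.4% of them hold at least 1. The longer ETS match GGAAGT occurs once in the Tnf window, at position -83 from the start site, and 0 times in that of Ltb; 19.7% of all windows hold it. The letters GGGNNNTTCC, a form of the NF-kB motif, occur in the Ltb window on the opposite strand at position -87, where they overlap an ETS core, and in 4.65% of all windows. The Runx motif TGTGGT occurs in neither window and in 14% of all. Both strands were searched. Lta and Tnfsf8 hold 6 and 5 cores in their windows, counts like those of Ltb and Tnf. Of the 10 genes, 9 had a sequence in the table, Cd40lg being the other one, and Tnfrsf9 had a pair of start sites. Such matches describe letters and do not show binding.

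Among the other ligands, Tnfsf8 and Cd40lg were higher in Ets1-/- and Tnfsf11 overlapped. Tnfsf8 encodes CD30 ligand, a surface protein of activated lymphocytes and antigen-presenting cells. It had 5.17, 5.82 and 5.51 in Ets1-/- and 3.99, 4.10 and 4.06 in wild type, so that every Ets1-/- array lay above every wild-type array, by at least 1.07. The means were 5.50 ± 0.33 in Ets1-/- and 4.05 ± 0.06 in wild type (SD, n = 3 each). The difference of 1.45 ± 0.24 (SE), or 2.74-fold, was 1.67 relative to the median of all genes but 0.92 with the pseudocount. Cd40lg encodes CD40 ligand, through which helper T cells activate B cells and dendritic cells. It had 4.12, 4.36 and 4.05 in Ets1-/- and 3.50, 3.53 and 3.51 in wild type, again without overlap. Its wild-type arrays agreed to an SD of 0.02, the smallest of the 10 genes, at a signal below the median of all probe sets (42.4th percentile). The difference was 0.66 ± 0.21 (SE), 0.87 after centring and 0.31 with the pseudocount. Tnfsf11, which encodes RANKL, the ligand that drives medullary epithelial maturation, had 3.90, 4.79 and 4.55 in Ets1-/- and 5.16, 4.62 and 4.55 in wild type. The lowest value was that of Ets1-/- replicate 1, the array with the low median. The difference was -0.36 ± 0.31 (SE; 95% interval -1.08 to 0.35), and -0.15 after centring.

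Of the 4 receptors, Tnfrsf9 had the largest difference. Cd27, a costimulatory receptor of thymocytes and T cells, was the only one of the 10 with a signal among the brightest 1% of probe sets (99.6th percentile). It had 10.62, 10.43 and 10.40 in Ets1-/- and 10.85, 10.89 and 10.91 in wild type. The Ets1-/- arrays were all lower in the deposited values, by -0.40 ± 0.21 (SE), but the groups overlapped after centring, where Ets1-/- replicate 1 had 11.14 against 10.76 to 10.82 in wild type. Centring shifts all probe sets of an array equally. It raised Ets1-/- replicate 1 for its low median, although that array already had the highest deposited Cd27 value of its group. The overlap therefore depends on that shift. The centred difference was -0.19, and that after quantile normalization was -0.45. Tnfrsf9, which encodes the activation-induced costimulatory receptor 4-1BB, had 4.96, 5.24 and 6.35 in Ets1-/- and 4.25, 4.21 and 4.87 in wild type. The groups were apart by only 0.09, and replicate 3 of Ets1-/- was the highest. The difference was 1.07 ± 0.40 (SE), and 0.66 to 1.35 when single arrays were left out, the lowest value being without Ets1-/- replicate 3. After centring the difference was 1.29, and with the pseudocount 0.73.

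Ltbr and Tnfrsf1b gave nearly equal differences. Ltbr, the lymphotoxin beta receptor, had 5.73, 5.60 and 5.93 in Ets1-/- and 5.44, 5.45 and 5.71 in wild type. Its difference was 0.22 ± 0.22 (SE; 95% interval -0.30 to 0.74). Tnfrsf1b, which encodes TNF receptor 2, had 5.60, 5.64 and 5.91 in Ets1-/- and 5.42, 5.62 and 5.44 in wild type. Its difference was 0.22 ± 0.22 (SE; 95% interval -0.28 to 0.73). Both sets of values overlapped in part, and after centring the differences were 0.43 for each gene.

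Across the 10 genes, 5 had a higher mean in Ets1-/- and 5 a lower one, and 6 lay above the median difference of all genes. Their median difference was 0.09, against -0.22 over all genes, and their median absolute difference was 0.46, against 0.31. In the fit over all genes (limma adjusted p under 0.05), 2 of the 10 were called, Tnfsf8 higher and Ltb lower. Of all genes 1.86% were called, 1.29% higher and 0.568% lower. The groups did not overlap for 5 of the 10 and for 21.9% of all genes, and a difference of at least 2-fold was seen for 3 of the 10 and for 7.34% of all genes. Neither these shares nor the calls, here and under the settings below, are a test of the 10 genes. This contrast was known when they were picked. With an intensity trend and a robust prior 3 of the 10 were called, Cd27 (lower) being added. Ltb was called under all 13 alternatives, among them a replicate block and each omission of 1 array. Tnfsf8 was called under 7 of 13 and was not called with the replicate block or without Ets1-/- replicate 2 or 3 or any 1 of the wild-type arrays.

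**Figure D2:**
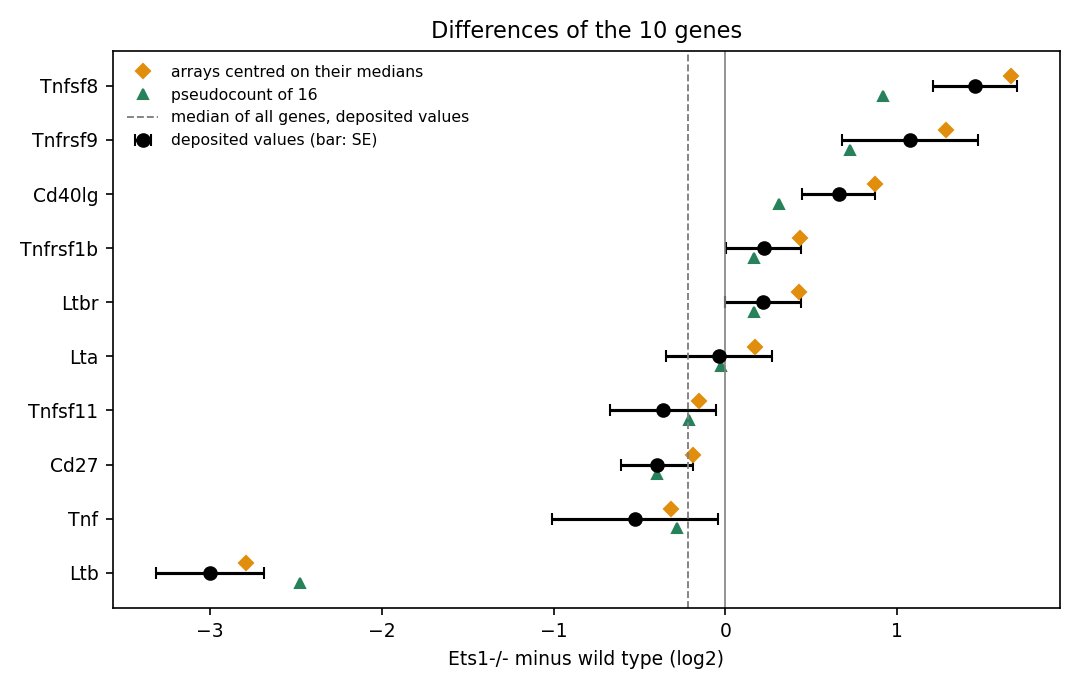
Difference in log2 signal, Ets1-/- minus wild type, for the 10 genes in the deposited values (circles with SE), after centring the arrays (diamonds) and with a pseudocount of 16 (triangles). Ltb stays far below 0 in all 3 (-3.00, -2.79 and -2.48) and Tnfsf8 above it (1.45, 1.66 and 0.92), while Lta changes sign with centring (-0.04 and 0.18).

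Among 8 known partners of these genes, listed after the values had been seen, 6 had a lower and 2 a higher mean in Ets1-/-. The median difference over all genes was -0.22. Of these 8, 0 passed the limma test, where 1.86% of all genes did. An unadjusted p under 0.05 was found for 3, where 13.2% of all genes had one. Since the 8 were picked with their values known, neither the split nor these counts are read as a result. Tnfsf9, which encodes the ligand of 4-1BB, had 2.80, 2.50 and 3.91 in Ets1-/- and 4.77, 4.52 and 5.24 in wild type. It lay lower in every Ets1-/- array, whereas its receptor gene Tnfrsf9 lay higher, but it did not pass the test (difference -1.78 ± 0.40, SE; limma adjusted p = 0.0812). It was called under 4 of 12 alternatives. Among them were the omission of Ets1-/- replicate 3 (-2.20, limma adjusted p = 0.0295) and the pseudocount (-0.85, limma adjusted p = 0.0408). Quantile normalization and centring did not call it (limma adjusted p = 0.0965 and 0.0857). Nor did the omission of any other array (limma adjusted p = 0.145 to 0.242). Its signal lay at the 45.6th percentile of all probe sets. Tnfrsf1a, which encodes TNF receptor 1, had 4.10, 5.41 and 5.55 in Ets1-/- and 6.72, 6.99 and 5.88 in wild type. The groups did not overlap, yet the difference of -1.51 ± 0.45 did not pass the test (limma adjusted p = 0.196), while Tnfrsf1b was at 0.22. Tnfsf14, the gene of LIGHT, a further ligand of the lymphotoxin beta receptor, was at -0.37 with overlapping groups (limma adjusted p = 0.670). Tnfrsf8, which encodes CD30, the receptor for the product of Tnfsf8, was at -0.73 (limma adjusted p = 0.320). The RANK gene Tnfrsf11a was at -0.40 and the decoy receptor gene Tnfrsf11b at -0.12, with limma adjusted p of 0.494 and 0.876. Cd40 was at 0.45 and Cd70, the ligand gene for CD27, at 0.15 (limma adjusted p = 0.588 and 0.813). Cd70 lay at the 10.6th percentile of signal, so its value says little.

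The rest of the family and its signalling genes were taken from 4 lists with 74 genes, of which 68 were measured. Of these, 0 passed the limma test over all genes in either direction, where 1.86% of all genes did, and 13 had an unadjusted p under 0.05, where 13.2% of all genes did. The median difference over the 68 was -0.10, against -0.22 for all genes. Under other settings 0 to 11 were called, the highest number with an intensity trend and a robust prior.

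Of 10 other ligands 1 had an unadjusted p under 0.05, which was Tnfsf9. Fasl, the ligand of the death receptor Fas, was next by p, at 0.25 (limma adjusted p = 0.664). Of 24 other receptors 6 had an unadjusted p under 0.05, beside the 13.2% of all genes. Tnfrsf13c, which encodes the BAFF receptor of B cells, had 4.98, 5.70 and 6.47 in Ets1-/- and 2.10, 4.17 and 2.71 in wild type. Its difference of 2.73 ± 0.57 (SE) did not pass the test (limma adjusted p = 0.0681) but was called under 7 of the alternatives, among them the pseudocount, both rescalings and the omission of wild-type replicate 2. The B-cell markers above moved the same way, and their part in this value was not tested. Tnfrsf21, which encodes death receptor 6, was at 1.45 ± 0.35 (limma adjusted p = 0.106) and was called after centring (1.66, adjusted p = 0.0343) but not with the replicate block (adjusted p = 0.140) or with any 1 array left out (adjusted p up to 0.280). With the pseudocount Tnfrsf13c was at 1.48 and Tnfrsf21 at 0.78.

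Of 25 adaptors and proximal signalling genes 6 had an unadjusted p under 0.05, again beside 13.2% of all genes, so neither count is read as a result of its list. Cflar, which encodes the caspase-8 inhibitor c-FLIP, had 7.93, 7.90 and 8.03 in Ets1-/- and 8.88, 8.81 and 8.82 in wild type. The spread within each group was smaller than the gap between them, but the difference of -0.88 ± 0.20 (SE) did not pass the limma test (adjusted p = 0.0901). It was called under 4 alternatives, among them the pseudocount (-0.84, limma adjusted p = 0.00469), but not after centring (-0.67, limma adjusted p = 0.210), with the replicate block (limma adjusted p = 0.236) or with any 1 array left out (limma adjusted p = 0.0744 to 0.315). Traf1, an adaptor induced by NF-kB, had 3.0, 3.79 and 3.71 in Ets1-/- and 5.87, 4.81 and 4.52 in wild type, a difference of -1.56 ± 0.40 (limma adjusted p = 0.124). Among 9 NF-kB subunits and inhibitors 0 had an unadjusted p under 0.05. Rel was at -0.53 and Bcl3 at 0.98, with limma adjusted p of 0.439 and 0.493. Relb, the subunit at the end of the lymphotoxin beta receptor pathway, was at -0.05 ± 0.30 (limma adjusted p = 0.948), and Nfkbia, an inhibitor induced by NF-kB, at 0.08 ± 0.21 (limma adjusted p = 0.887). Those last 2 were chosen after their values were seen.

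**Figure D3:**
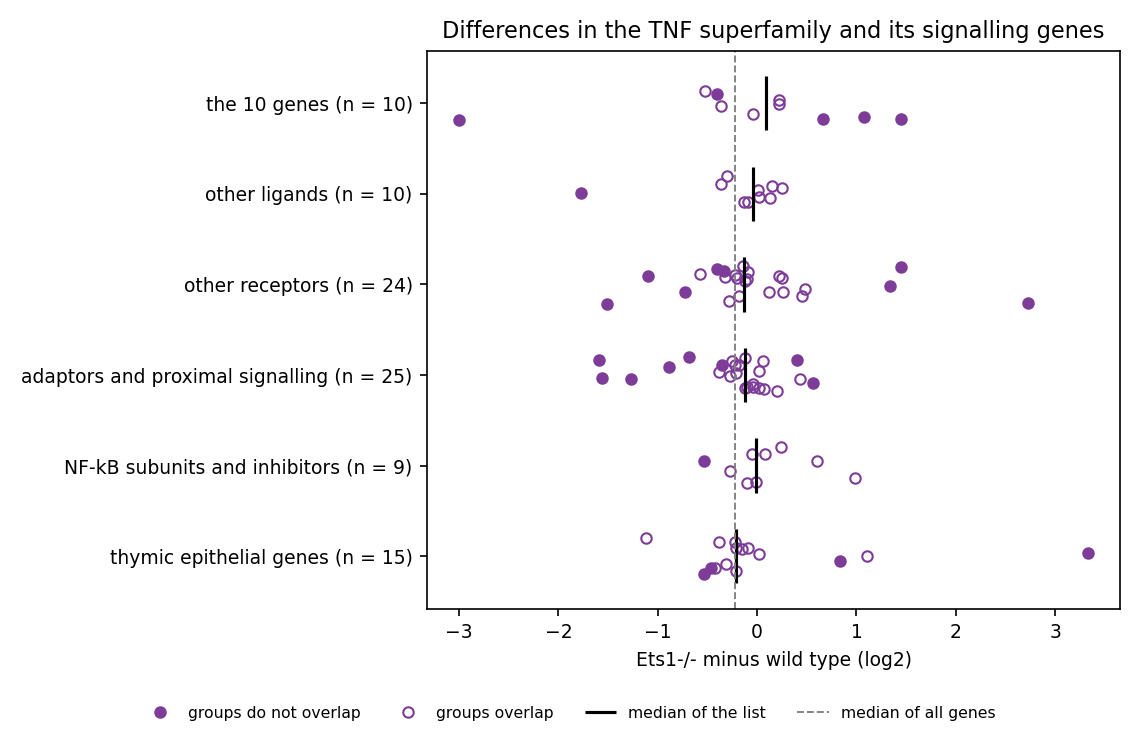
Difference in log2 signal, Ets1-/- minus wild type, for each measured gene of the 10 and of 5 lists, with filled points where the groups do not overlap and a bar for the list median. The list medians lie between -0.22 and 0.09 and the dashed line, the median of all genes, at -0.22; Ltb is the lowest point of all at -3.00.

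Genes of thymic epithelium, the cells that receive the crosstalk, were checked as a sign of their RNA. Of 15 measured, 0 passed the limma test, where 1.86% of all genes did. An unadjusted p under 0.05 was found for 3, where 13.2% of all genes had one. The mean was higher in Ets1-/- for 4 of the 15. The median difference was -0.22, close to that of all genes. The summed linear signal was 219 to 504 in Ets1-/- and 273 to 284 in wild type. Single genes weighed on it: Krt18 had 6.70 in Ets1-/- replicate 2, against 3.67 and 4.44 in replicates 1 and 3. Spib, a factor of medullary epithelium that B cells and plasmacytoid dendritic cells also make, was at 3.33 ± 0.67 (SE; limma adjusted p = 0.0578), and was called under 5 alternatives, none of which left out an array. Ly75, shared with dendritic cells, was at 0.83 ± 0.33 (limma adjusted p = 0.334).

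The position of the genes was examined next, because 3 of the ligands form a cluster in the major histocompatibility complex on chromosome 17 and Cd27 and Ltbr lie close to each other on chromosome 6. On the Ltb side, Aif1 and Lst1, both genes of myeloid cells, lay higher in Ets1-/-. Aif1 had 8.72, 8.52 and 8.82 in Ets1-/- and 6.83, 6.95 and 6.55 in wild type, and rose by 1.91 ± 0.23 (SE; limma adjusted p = 0.00657). Lst1 had 8.06, 7.68 and 7.95 in Ets1-/- and 4.38, 5.63 and 2.26 in wild type (difference 3.81 ± 0.74, SE; limma adjusted p = 0.0507), and was called under 8 alternatives, among them the omission of wild-type replicate 2 or 3. Ltb therefore lay between genes with the opposite direction and a pair, Tnf and Lta, whose groups overlapped. On the Lta side, Nfkbil1, a relative of the NF-kB inhibitors, was at -0.91 ± 0.28 (limma adjusted p = 0.200), and the proton pump subunit gene Atp6v1g2 at -0.10 ± 0.54 (limma adjusted p = 0.944).

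Around Cd27 and Ltbr, the nearest measured genes on the outer sides were Vamp1 and Tapbpl beside Cd27 and Scnn1a and Tnfrsf1a beside Ltbr. Between them lay 1 measured gene, the noncoding 4930417O13Rik, which had 6.09, 6.50 and 6.93 in Ets1-/- and 7.44, 7.64 and 7.06 in wild type. Its groups did not overlap, but the difference of -0.88 ± 0.29 (SE) did not pass the test (limma adjusted p = 0.246). It was named after its values were seen. Vamp1, a vesicle fusion protein, had 6.56, 6.10 and 6.49 in Ets1-/- and 7.78, 7.40 and 7.92 in wild type. It fell by 1.32 ± 0.25 (SE; limma adjusted p = 0.0486), a call that ended with the omission of any single array (adjusted p up to 0.174), after either rescaling and with the replicate block. Tapbpl, a peptide editor of MHC class I, was at -0.07 ± 0.22 and the sodium channel gene Scnn1a at -0.26 ± 0.26 (limma adjusted p = 0.905 and 0.687). Tnfrsf1a, the third gene of the receptor family in this stretch, is given above.

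**Figure D4:**
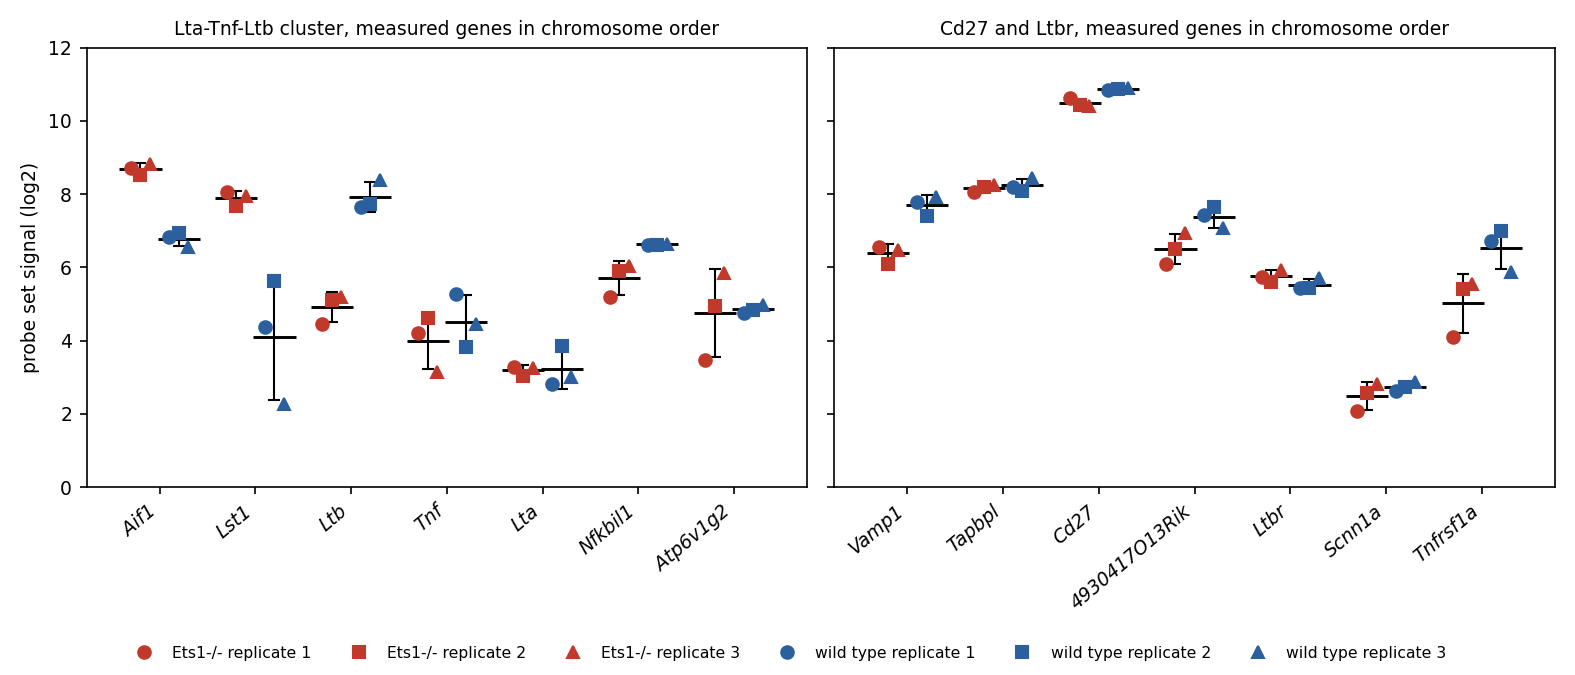
Log2 probe set signal on each array for the measured genes around the Lta-Tnf-Ltb cluster and around Cd27 and Ltbr, in chromosome order, with Ets1-/- left of wild type and bars for the mean and SD (n = 3). Aif1 and Lst1 are higher in Ets1-/- (means 8.69 and 7.90, against 6.78 and 4.09), Ltb is lower (4.92, against 7.92), and Tnf and Lta overlap.

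The genes whose pattern over the 6 arrays was most like that of Ltb were found by the root mean square distance between gene-centred log2 values. The 5 nearest were Plxnd1, Gsdma, Tdrd5, F13a1 and Ptpre, at distances of 0.26, 0.26, 0.26, 0.29 and 0.30. Plxnd1, a guidance receptor of thymocytes, had 4.88, 5.81 and 5.81 in Ets1-/- and 8.33, 8.19 and 8.33 in wild type. Ptpre, a tyrosine phosphatase, had 4.00, 4.85 and 5.35 in Ets1-/- and 7.58, 7.37 and 7.59 in wild type. In all 5, Ets1-/- replicate 1, the array with the low median, had the lowest value, as in Ltb. The differences of Gsdma, Tdrd5 and F13a1 were -3.09, -2.55 and -3.02. With the pseudocount Gsdma, at the 11.1th percentile of signal, was at -0.85. Since 2 groups of 3 arrays set this measure, it mainly finds genes with a difference of similar size.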

How the data were processed

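RNA of 6 single-channel Affymetrix arrays was analysed, 3 for each genotype. The authors deposited log2 probe set values, made with affy per the submitters' processing notes; their log2 scale follows from the range of -15.86 to 16.36. Background correction, normalization between arrays and genome build were not given in the sources used here. Of 41345 probe sets, 23521 named 1 gene, 1814 several and 16010 were unnamed. Of those naming 1 gene, 23328 matched the RefSeq table of GRCm38.p6 by gene identifier, which served for names and neighbours. Each gene was read through its brightest probe set. Ets1-/- minus wild type was fitted with limma 3.58.1 in R 4.3.3 (lmFit, eBayes, two-sided, no covariate, no filter on dim probe sets) over 22180 genes, with Benjamini-Hochberg adjustment and a threshold of 0.05. SE are limma's moderated errors, and a 95% interval belongs to them. The fit was tested on simulated data. Summaries were made in pandas 2.3.3 (Python 3.11.15) and drawn in matplotlib 3.10.9. The number of arrays limits the precision, and no detection calls were available. The p-values set a group difference against the spread between these samples, moderated over all genes.

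The members and lists were chosen with earlier results of these data known. Named are all members, the 2 genes with the smallest p in each list without a call, the 5 genes most like Ltb, the 2 nearest measured genes on each side, and the 2 markers with the smallest p in marker lists with a call; marker lists without a call are given as counts. The 8 genes given as partners of members by known binding (of which Tnfsf9 and Tnfrsf1a also fall under the rule above), and Relb, Nfkbia and 4930417O13Rik, were added after their values were seen. So were the further genes named from the marker and epithelial lists. Alternatives were the mean of all probe sets, a filter at the median signal, quantile normalization, median centring, an intensity trend with a robust prior, a pseudocount of 16, a replicate block and the omission of each array. The labels give no batch or scan date.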

Additional observations from a re-analysis of the deposited data

How the results depend on the processing

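Ltb was picked with this contrast known, so its calls in refits of the same arrays are a description and no support. It was called under all 13 alternatives, and its difference kept its direction in each. Over all genes 413 calls were made, against 798 with quantile normalization (513 higher, 285 lower), 745 after median centring (545 higher, 200 lower), 1172 with an intensity trend and robust prior (618 higher, 554 lower), 908 with the pseudocount (484 higher, 424 lower), and 190 to 379 when 1 array was left out. Of the 10 genes 2 were called, 3 with the intensity trend and robust prior, and 1 to 2 when 1 array was left out. The replicate block left 1 call among the 10, Ltb, and gave 311 over all genes (249 higher, 62 lower), although the labels do not say that a number marks a shared litter, and deviations of same-numbered arrays from their group means correlated at -0.07, -0.01 and -0.05 across genes. Among the other family and signalling genes 0 were called, but 2 above the median signal, 4 with quantile normalization, 3 after centring, 11 with the trend and robust prior, 7 with the pseudocount, 2 with the replicate block and 0 to 1 with 1 array left out. The cause was not tested.

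Differences near 0 changed sign without passing the test. Centring gave Ets1 0.11, Atp6v1g2 0.11, Tapbpl 0.14, Tnfrsf11b 0.093 and Relb 0.16, and quantile normalization gave Atp6v1g2 0.074, Tnfrsf11b 0.11 and Relb 0.14. The pseudocount gave Atp6v1g2 0.013. With 1 array left out, Ets1 ranged from -0.19 to 0.049, Atp6v1g2 from -0.65 to 0.54, Tapbpl from -0.14 to 0.030, Tnfrsf11b from -0.40 to 0.027, Cd70 from -0.0091 to 0.28, Relb from -0.28 to 0.23 and Lta from -0.24 to 0.27. Of the markers, Ptcra lost its call with the replicate block and without any 1 array but Ets1-/- replicate 1 (adjusted p up to 0.116), Maf without Ets1-/- replicates 1 or 3 or wild-type replicate 2 in turn (up to 0.101), Mzb1 without Ets1-/- replicate 2 (0.0567), and Blk with the pseudocount and without Ets1-/- replicates 2 or 3 or wild-type replicates 1 or 3 in turn (up to 0.145). Lta and Cd40lg lie below the median signal and have no value under that filter. Without detection calls, signals as low as those of Lta, Cd40lg and Cd70 limit what their differences can show.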
